A study of Mus musculus with 8 samples.

Results

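Motor neurons of mice with spinal muscular atrophy (SMA) were compared with motor neurons of wild-type (WT) mice in 4 of the 8 RNA-seq libraries of the series. The members were the 2 libraries labelled as SMA motor neurons and the 2 labelled as WT motor neurons, and every gene with at least 1 RPKM in at least 2 of these 4 libraries, which left 12387 of the 23278 genes in the tables. RPKM is the number of reads on a gene, divided by the length of the gene model and scaled to the reads of the library. White matter libraries did not enter the comparison. All mice were of the FVB/N strain and were taken on postnatal day 1, and the tissue was the ventral horn of the lumbar spinal cord. WT mice carried no label of a transgene. SMA mice had the genotype SMN2+/+;SMNΔ7+/+;Smn-/-, that is, no mouse Smn, the human SMN2 gene and a human SMN cDNA that lacks exon 7. The human genes were not analysed here. Cells were cut out by laser from frozen sections stained with hematoxylin, so they were chosen by shape and position, and a captured piece can hold parts of the cells around it. The labels name no animals, so how many animals stand behind a library is not given, and a p-value here speaks only of spread among 4 libraries, which may be technical.

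SMN is the core of a complex that loads Sm proteins onto small nuclear RNAs, the RNA parts of the spliceosome, and too little of it causes SMA, a disease in which spinal motor neurons die and muscles waste. Among the responses described in SMN-deficient motor neurons is that of p53, a transcription factor that is stabilised by damage to DNA and by disturbed RNA processing and that turns on genes of cell cycle arrest and cell death. Motor neurons of the spinal cord make acetylcholine, carry long neurofilament-rich axons to muscle, and are set up by transcription factors such as Isl1 and Mnx1. They fall into subtypes that supply fast or slow muscle fibres or different muscles.

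The libraries held the genes that define motor neurons. Chat, the enzyme that makes acetylcholine, was at 25.0 and 13.8 RPKM in the WT libraries and at 11.8 and 14.6 RPKM in the SMA libraries (replicates 1 and 2, in this order throughout). Slc18a3, the transporter that loads acetylcholine into vesicles, was at 218 and 233 RPKM in WT and 180 and 221 RPKM in SMA, and Mnx1 at 7.27 and 5.59 RPKM in WT and 5.79 and 6.94 RPKM in SMA. The values of the 2 genotypes overlapped for Chat, Slc18a3 and Mnx1. All 25 measured genes of a list of 26 motor neuron markers passed the filter. Markers of neighbouring cells were present as well: none of the 24 astrocyte or 26 measured microglia markers was at 0 in all 4 libraries. All 24 astrocyte markers and 19 of the microglia markers passed the filter. Of 24 measured markers of myelinating oligodendrocytes 13 passed, and only Opalin and Ermn were at 0 throughout. Of 30 measured spinal interneuron markers 17 passed, and only Lmx1b and Tlx3 of dorsal interneurons were at 0 throughout.

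The scaling of the RPKM values corresponded to 77.5 to 91.0 M reads per library, with 50.8 to 67.8 M reads on genes other than the ribosomal RNA gene Rn45s. A single read in a gene of 1 kb was therefore worth 0.0110 to 0.0129 RPKM, a step far below the filter of 1 RPKM for genes of that length. The SMA libraries differed from each other more than any other pair. At least 2-fold apart were 3029 tested genes (24.5%) between the SMA libraries, 547 (4.42%) between the WT libraries, and 1168 to 1972 between an SMA and a WT library. Of the 3029 genes, 2476 were lower in SMA replicate 2 and 553 higher. This gap followed base composition in part. In the fifth of genes with the lowest GC content of the transcript, the median gene stood 0.37 above the WT mean in SMA replicate 1 and at -0.72 against it in SMA replicate 2 on the log2(RPKM + 1) scale, and in the fifth with the highest GC content at -0.023 and 0.15. Across the 11235 genes with a GC value, Spearman's rho of GC content with the difference of the SMA libraries (replicate 1 minus 2) was -0.55, against 0.024 for the WT libraries, as a description over genes that share these libraries. SMA replicate 2 also had the fewest genes at 1 RPKM (11539, against 11983 to 12248) and the highest Rn45s share of the RPKM sum (33.4%, against 22.4 to 29.5%). With the GC trend removed in each library, an alternative added after the data were seen, 50.4% of 11235 genes had a positive difference between SMA and WT. Of these genes, 2754 were at least 2-fold apart between the SMA libraries before the removal and 1582 after it. Between the WT libraries the numbers were 498 and 479, so the SMA libraries still differed more. Several lists are given both ways below, and the plot of gene lists shows the median of every list both ways. The part of GC content in single results was not tested. Sex-linked genes followed the replicate number in both genotypes. Xist, which silences the second X chromosome of females, was at 12.6 and 0.0259 RPKM in WT and 17.9 and 0.00203 RPKM in SMA, and Ddx3y, a gene of the Y chromosome, at 0 and 3.65 RPKM in WT and 0 and 0.628 RPKM in SMA. The labels give no sex. Replicates of a genotype thus also differ in these genes, a fit that leaves out 1 library is unbalanced in them, and their part in the results was not tested.

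**Figure D1:**
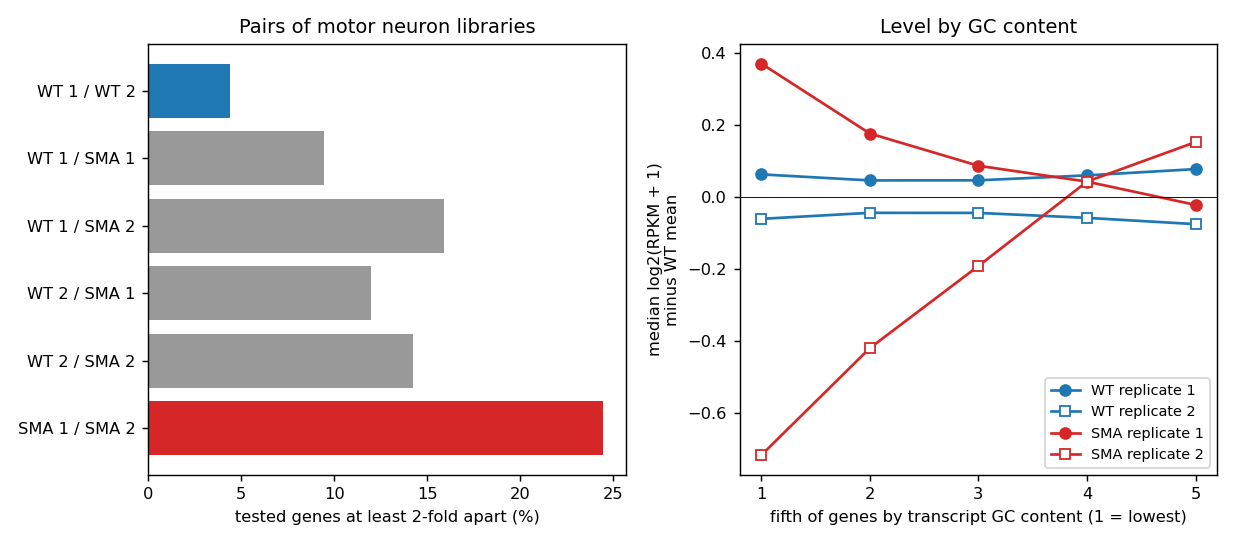
Left: share of the 12387 tested genes that were at least 2-fold apart, on log2(RPKM + 1), in each pair of motor neuron libraries (blue, WT pair; red, SMA pair; grey, 1 library of each genotype). Right: median log2(RPKM + 1) minus the mean of the WT libraries in 5 equal groups of genes by transcript GC content; 24.5% of genes were at least 2-fold apart between the SMA libraries, whose curves part toward low GC, where replicate 1 reached 0.37 and replicate 2 reached -0.72.

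Smn1, the gene deleted in SMA mice, was at 6.82 and 2.93 RPKM in the WT libraries (762 and 279 reads) and listed at 0 in both SMA libraries, as the genotype labels state. With 3 reads taken as the upper limit in each SMA library, a limit that allows for counting error alone, it was at least 164-fold lower than the WT mean, and at least 98.0-fold lower than the lower WT library. The WT libraries differed more than 2-fold, and Smn1 did not pass limma (Benjamini-Hochberg adjusted p = 0.999).

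No gene passed the test of SMA against WT: limma on log2(RPKM + 1) with Benjamini-Hochberg adjustment called 0 genes (0% of those tested) at an adjusted p of 0.05, and limma-voom on reads recovered from the RPKM values called 0 as well. The smallest adjusted p belonged to Cdkn1a (0.239), followed by Mir344-2 (0.868), and every other gene stood at 0.999. At an unadjusted p under 0.05 limma had 178 genes higher in SMA (1.44%) and 194 lower (1.57%), where a test with no true difference would give about 619. Under median-of-ratios scaling these numbers were 261 and 187, and under quantile normalization 286 and 181, so the balance of higher and lower genes depended on the scaling. The median difference over all tested genes was -0.059 on the log2 scale, and 43.6% of genes had a positive difference. Without SMA replicate 1 limma called 92 genes higher and 578 lower, and without SMA replicate 2 it called 36 higher and 32 lower, in fits where the lone SMA library is assumed to vary like the WT pair. Leaving out either WT library gave 0 calls.

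Because no gene passed, the genes below are described by their levels in each library and none is said to have changed. A gene is called separated where both SMA values lay above (or below) both WT values and the group means differed by at least 1 on the log2(RPKM + 1) scale. Separated genes numbered 164 higher in SMA (1.32% of the tested genes) and 208 lower (1.68%). Of these, 42 and 62 passed the filter only through the libraries of the genotype in which they were high. Both SMA values lay above both WT values, at any size, in 1580 genes (12.8%) and below in 1911 (15.4%).

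**Figure D2:**
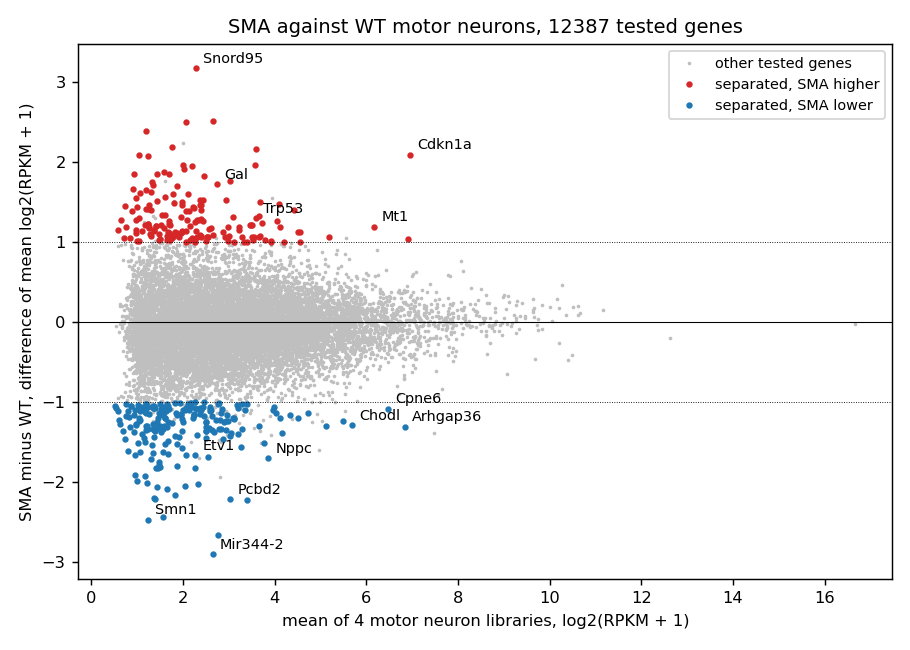
Difference of the group means (SMA minus WT) against the mean of the 4 libraries, both on log2(RPKM + 1), for the 12387 tested genes; red and blue points are the 164 and 208 separated genes, dotted lines mark a difference of 1. Cdkn1a combined a high mean level with a difference of 2.10, and most of the larger differences lay at low levels.

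Cdkn1a was the gene with the smallest p. It encodes p21, an inhibitor of cyclin-dependent kinases and the best known target of p53. It was at 59.98 and 58.4 RPKM in the WT libraries and at 269 and 245 RPKM in the SMA libraries, from 8646 to 41958 reads. The SMA libraries were 4.34-fold higher on average, the replicates of each genotype lay close together and the genotypes did not overlap. The difference was 2.10 ± 0.20 (SE) on the log2 scale with a limma adjusted p of 0.239. Without SMA replicate 1 it was 2.03 (adjusted p = 0.00076) and without SMA replicate 2 it was 2.17 (adjusted p = 0.0018), whereas without WT replicate 1 it was 2.12 (adjusted p = 0.99998) and without WT replicate 2 it was 2.08 (adjusted p = 0.99995). With the replicate number, which the sex-linked genes follow, as a term in the fit, the adjusted p was 0.0424, and 0.206 with the GC trend removed as well. With the GC trend removed alone it was 0.0929. The difference was between 2.03 and 2.17 in all of these fits, and the side of the threshold depended on the fit.

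Trp53, the gene of p53 itself, was at 7.69 and 5.80 RPKM in WT and 14.5 and 22.2 RPKM in SMA, and was separated with a log2 difference of 1.30 ± 0.37 (SE; limma adjusted p = 0.999). Genes that control p53 did not stand apart in the same way. Mdm2, the ubiquitin ligase that degrades p53 and is itself a p53 target, was at 14.7 and 12.4 RPKM in WT and 16.8 and 11.5 RPKM in SMA, with overlapping values. Mdm4, the partner of Mdm2, was at 6.13 and 6.03 RPKM in WT and 5.81 and 4.05 RPKM in SMA. Of the 17 tested genes of the p53 regulator list, 6 had a positive difference (43.6% of all tested genes did), and Trp53 was the only separated member.

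Of 43 genes on the p53 target list 42 were measured and 38 passed the filter, 5 of them only through both SMA libraries. The list was drawn up with earlier results of these data known and is described without a test. Both SMA values lay above both WT values in 17 of the 38 (12.8% of all tested genes did) and below in 1, and 7 were separated, all higher in SMA (1.32% of all tested genes were). The 5 that passed only through SMA, Gtse1, Fas, Psrc1, Lrdd and Tap1, had to lie above WT. Among the other 33, both SMA values lay above both WT values in 12 (36.4%, beside 12.1% of all tested genes that did not pass through 1 genotype alone) and below in 1, and 3 were separated. The median difference of these 33 was 0.40, beside -0.058 for all genes taken in this way. Over the 38 it was 0.47, 0.60 in SMA replicate 1 and 0.31 in SMA replicate 2 against the WT mean, and 0.45 with the GC trend removed. Targets that act on growth and the cell cycle were among those with higher SMA values. The polo-like kinase gene Plk2 had 6.08 and 6.38 RPKM in WT and 20.4 and 12.3 RPKM in SMA. Sesn2, a sestrin that restrains mTORC1, was at 8.79 and 5.72 RPKM in WT and 14.2 and 17.0 RPKM in SMA. Phlda3, which restrains Akt signalling, was at 13.6 and 13.3 RPKM in WT and 22.3 and 34.7 RPKM in SMA. In each of these 3 genes both SMA libraries lay above both WT libraries.

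Targets with a role in cell death were split. Fas, a death receptor and one of the genes that passed only through SMA, was listed at 0 in both WT libraries and at 2.74 and 1.00 RPKM in the SMA libraries (333 and 123 reads), at least 77.7-fold higher if each WT library is given 3 reads. Bax, a pore-forming protein of the mitochondrial death pathway, was at 26.1 and 15.3 RPKM in WT and 32.2 and 30.8 RPKM in SMA. Bbc3, which encodes the death activator PUMA, was at 2.66 and 0.477 RPKM in WT and 2.83 and 1.92 RPKM in SMA, so its values overlapped while those of Fas and Bax did not. Aen, an apoptosis-associated nuclease, was at 5.84 and 5.50 RPKM in WT and 8.26 and 15.96 RPKM in SMA. Pmaip1 and Tnfrsf10b were among the 4 measured targets that did not pass the filter. In the separate list of cell death genes 12 of 25 tested members had a positive difference (43.6% of all tested genes did) and none was separated.

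Several targets depended on which SMA library was read. Ccng1, cyclin G1, was at 16.1 and 14.9 RPKM in WT, 58.9 RPKM in SMA replicate 1 and 8.05 RPKM in SMA replicate 2, so the SMA libraries lay on opposite sides of WT. Polk, a DNA polymerase that copies past lesions, was at 2.92 and 2.30 RPKM in WT and 9.44 and 2.56 RPKM in SMA. Ei24 was at 22.7 and 15.1 RPKM in WT and 36.5 and 6.41 RPKM in SMA. The transcript GC contents of Ccng1 and Polk, 40.8% and 41.6%, were below the median of 49.9% over tested genes, and that of Cdkn1a was 54.4%.

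**Figure D3:**
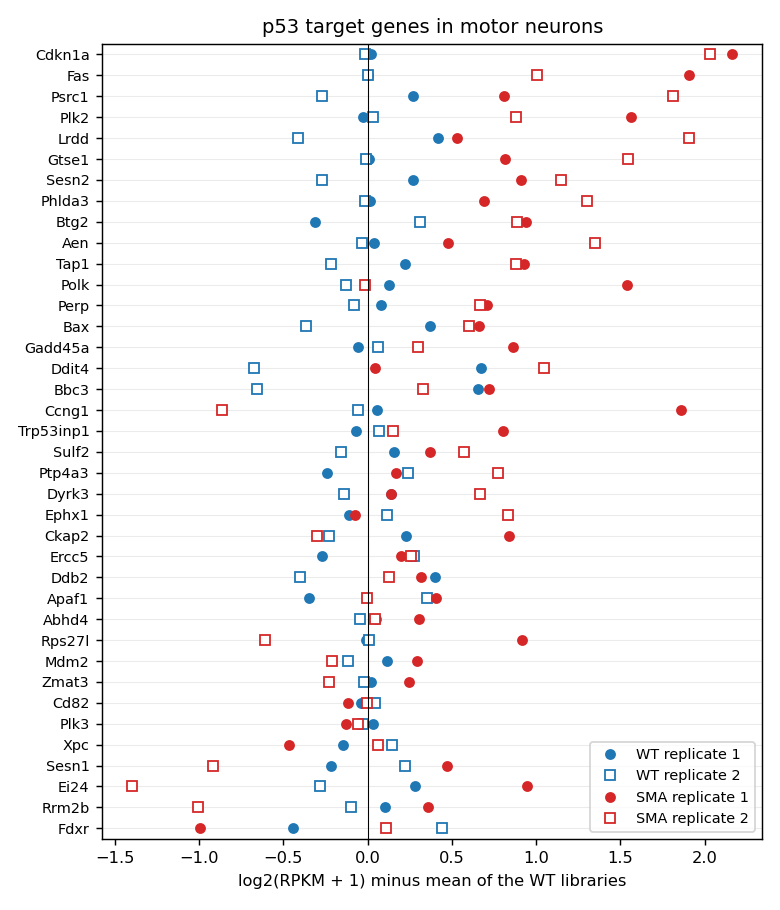
log2(RPKM + 1) of the 38 tested p53 target genes in each motor neuron library, minus the mean of the WT libraries (filled, replicate 1; open, replicate 2; blue, WT; red, SMA). Both SMA values lay above both WT values in 17 genes, and Ccng1 and Ei24 had their SMA values on opposite sides of WT.

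Promoter sequences were read for the p53 targets because p53 binds a known element, a pair of decamers with a short spacer, and because Cdkn1a had the largest difference among them. The scan was chosen after the data were seen. It covered the 250 bases before and 50 bases after each RefSeq gene start (GRCm38.p6, a build other than the mm9 of the expression tables), on both strands, since the decamer of the p53 response element reads the same on either. A pair with a spacer of up to 13 bases was found in 24 of 32851 promoters (0.0731%), and 1 of these was the upstream start of Cdkn1a. A single decamer was found in 8.36% of all promoters, in 8.12% of the 8647 tested genes with a promoter, and in 13 of the 30 p53 targets with one. Of the 14 targets in which both SMA values lay above both WT values 5 had a decamer, and of the 16 others 8 had one. The windows below, from the strand of the gene, show the pair of Cdkn1a, the single decamer before the downstream start of Aen, which was higher in both SMA libraries, and those of Mdm2 and Ccng1, which were not; capitals mark the match.
Cdkn1a, chr17:29090886-29090957 (+): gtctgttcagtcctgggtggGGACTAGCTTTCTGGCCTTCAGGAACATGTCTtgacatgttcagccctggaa
Aen, chr7:78895917-78895966 (+): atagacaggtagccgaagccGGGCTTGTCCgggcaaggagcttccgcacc
Mdm2, chr10:117710915-117710964 (-): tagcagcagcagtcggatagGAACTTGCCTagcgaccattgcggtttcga
Ccng1, chr11:40755442-40755491 (-): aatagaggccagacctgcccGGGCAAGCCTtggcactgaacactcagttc
All lie before the gene start used here, although the decamer of Aen lies after the upstream start of that gene. The pair of Cdkn1a spans 32 bases that begin 73 bases before the start. The scan allowed no mismatch. The stretch right after the second decamer of Cdkn1a departs from the decamer pattern only in its first base and was not marked. Capitals thus show the pair that the scan found, and other pairings were not read. A match of letters says nothing of binding in these cells.

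The separated genes with the smallest p among those higher in SMA had varied roles, and 2 of them, Gal and Cck, are neuropeptides. Gal, the neuropeptide galanin, was at 2.70 and 2.62 RPKM in WT and 9.62 and 12.8 RPKM in SMA (4.21-fold). Cck, cholecystokinin, was at 6.90 RPKM in both WT libraries and at 21.3 and 16.7 RPKM in SMA (2.75-fold). Uts2, urotensin II, a peptide of motor neurons with a smaller difference, was at 190 and 223 RPKM in WT and 392 and 313 RPKM in SMA (1.71-fold). For these 3 peptides every SMA library lay above every WT library. Nppc, C-type natriuretic peptide, went the other way, with 26.8 and 23.6 RPKM in WT and 6.76 and 7.33 RPKM in SMA, 3.57-fold lower. The neuropeptide list as a whole was balanced, with 13 of 26 tested members positive (43.6% of all tested genes were). In it 2 were separated higher and 2 lower (1.32% and 1.68% of all tested genes were).

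Fxyd5, a regulator of the sodium pump, was at 1.84 and 0.0902 RPKM in WT and 8.68 and 9.25 RPKM in SMA, with 200 reads in the WT libraries together and over 800 in each SMA library. Slc30a3, which loads zinc into synaptic vesicles, was at 4.69 and 2.42 RPKM in WT and 15.8 and 12.4 RPKM in SMA. Rprm, which encodes the cell cycle arrest protein reprimo and is known to respond to p53 but was not on the target list, was at 3.33 and 3.70 RPKM in WT and 13.9 and 10.4 RPKM in SMA (3.45-fold). All 3 were separated. Dkkl1, a relative of the Wnt inhibitor dickkopf, was at 11.5 and 12.97 RPKM in WT and 26.0 and 43.9 RPKM in SMA, and Fbxl6, an F-box protein, at 1.11 and 1.05 RPKM in WT and 4.76 and 9.65 RPKM in SMA. The small nucleolar RNA genes Snord95 and Snora3 were also among these genes, from 93 or fewer reads in each library. Snord95 was at 1.62 and 0 RPKM in WT and 16.7 and 11.1 RPKM in SMA.

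Metallothioneins bind zinc and copper and are induced by metals and stress. Mt1 was at 60.5 and 35.8 RPKM in WT and 111 and 105 RPKM in SMA, 2.24-fold higher. Mt2 was at 105 and 66.2 RPKM in WT and 125 and 238 RPKM in SMA. Hmox1, heme oxygenase, was at 1.68 and 2.68 RPKM in WT and 7.12 and 8.31 RPKM in SMA. These 3 were the separated members of a list of 26 oxidative stress and metallothionein genes (1.32% of all tested genes were separated higher). Of the 26, 11 had a positive difference (43.6% of all tested genes did), and the median was -0.035. With the GC trend removed 17 of the 26 were positive and the median was 0.052. Other enzymes against reactive oxygen had overlapping values. Prdx2, a peroxiredoxin, was at 166 and 137 RPKM in WT and 144 and 159 RPKM in SMA, and Sod1, superoxide dismutase, at 69.3 and 67.4 RPKM in WT and 77.5 and 53.4 RPKM in SMA. Srxn1, sulfiredoxin, was lower in both SMA libraries (11.02 and 12.5 RPKM in WT, 6.84 and 5.83 RPKM in SMA).

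Among the immediate early genes, which neurons switch on within minutes of activity, Fos was at 1.78 and 2.06 RPKM in WT and 13.3 and 6.49 RPKM in SMA (5.16-fold). Egr1 was at 7.18 and 4.80 RPKM in WT and 10.5 and 14.95 RPKM in SMA, and Dusp4, a phosphatase of MAP kinases, at 5.27 and 7.03 RPKM in WT and 11.3 and 15.5 RPKM in SMA. Jun and Dusp1 of the same list were lower in both SMA libraries, Jun with 34.0 and 44.0 RPKM in WT and 30.8 and 28.5 RPKM in SMA. In all 11 of 23 tested members had a positive difference (43.6% of all tested genes did). The separated members were Fos, Dusp4 and Zfp36 (1.32% of all tested genes were separated higher). Zfp36 passed the filter only through SMA and had to lie above WT.

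**Figure D4:**
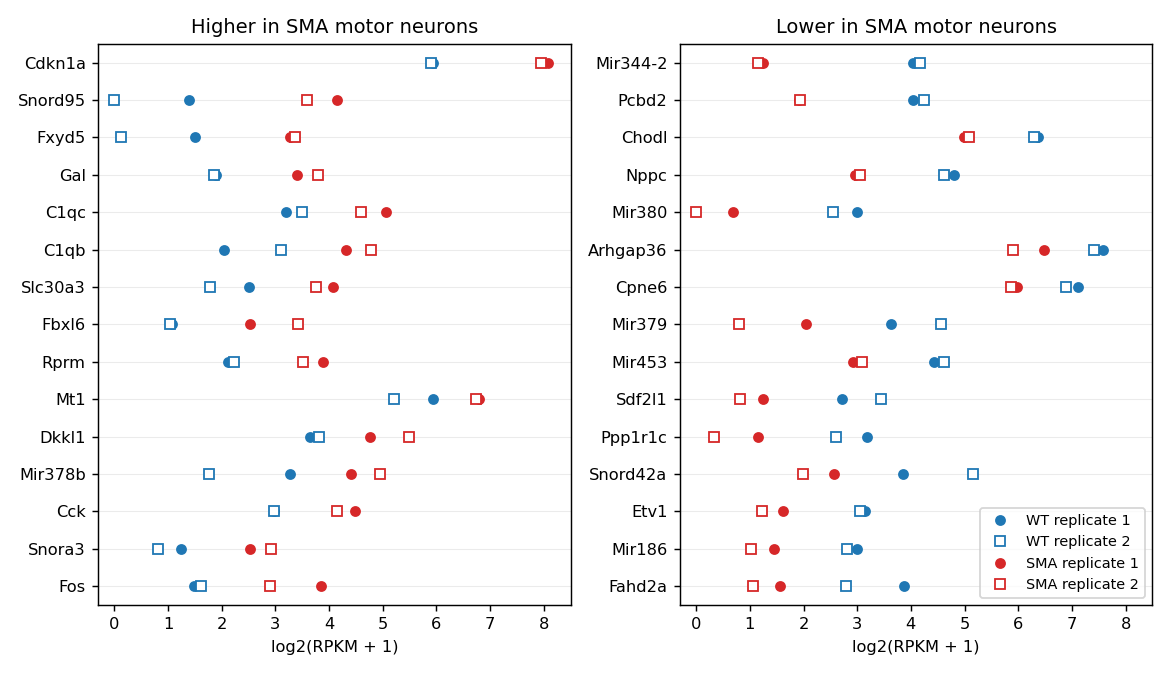
log2(RPKM + 1) in each motor neuron library for the 15 higher and 15 lower separated genes with the smallest limma p among those with a group mean of at least 5 RPKM (filled, replicate 1; open, replicate 2; blue, WT; red, SMA). The 2 SMA values lie on one side of the 2 WT values in every row, as the choice of genes requires.

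Among genes that mark kinds of motor neurons, some had lower SMA values and others higher ones. Chodl, which encodes chondrolectin and marks motor neurons of fast muscle fibres, was at 81.1 and 77.3 RPKM in WT and at 30.9 and 32.8 RPKM in SMA, 2.49-fold lower, with 6381 reads or more in each library. The replicates of each genotype were within 4 RPKM, and the log2 difference was -1.29 ± 0.24 (SE; limma adjusted p = 0.999). Etv1, an ETS transcription factor, was at 7.83 and 7.25 RPKM in WT and at 2.09 and 1.35 RPKM in SMA, 4.38-fold lower. It was on the list of general motor neuron markers described below, as the only separated member there, and not on the subtype list. In captured cells a lower level cannot be told apart from fewer cells of that type among those cut out, here and for every gene below. Other genes of motor neuron kinds had overlapping values, such as Esrrg (82.7 and 58.0 RPKM in WT, 78.5 and 46.3 RPKM in SMA) and Rbfox3 (40.8 and 34.0 RPKM in WT, 26.2 and 38.5 RPKM in SMA). Of 31 tested genes in the subtype list 12 had a positive difference (43.6% of all tested genes did), and Chodl was the only separated member. Kcnq5 passed the filter only through WT and had to lie below it. Among the other 30, both SMA values lay below both WT values in 8 (26.7%, beside 14.5% of all genes taken in this way). They lay above in 4 (13.3%, beside 12.1%), such as Sv2a, at 29.9 and 23.1 RPKM in WT and 48.5 and 35.1 RPKM in SMA. The median of the whole list, -0.19, was -0.014 with the GC trend removed.

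The list of general motor neuron markers had 23 of 25 members with a negative difference, against 56.4% of all tested genes, and 9 members with both SMA values below both WT values (15.4% of all tested genes) and 1 above. Its median was -0.34, -0.22 in SMA replicate 1 and -0.30 in SMA replicate 2, and -0.31 with the GC trend removed. Most of the differences were small. Nefm, a neurofilament subunit and the most abundant member, was at 1793 and 1410.4 RPKM in WT and 1147 and 1135 RPKM in SMA, and Nefl, another subunit, overlapped at 1517 and 1089 RPKM in WT and 1157 and 989.7 RPKM in SMA. Isl1 was at 28.2 and 34.9 RPKM in WT and 21.6 and 23.9 RPKM in SMA, and Gfra1, the coreceptor of GDNF, at 91.7 and 77.3 RPKM in WT and 58.6 and 63.9 RPKM in SMA. Prph, the intermediate filament peripherin, was at 133 and 151 RPKM in WT and 138 and 130 RPKM in SMA, with overlap. Summed over the 25 measured markers the level was 4731 and 3782 RPKM in WT and 3362 and 3224 RPKM in SMA. Most of this sum came from Nefm and Nefl in every library.

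Arhgap36, a protein that inhibits protein kinase A, was one of the most abundant genes of this kind, at 190 and 170 RPKM in WT and 88.1 and 58.8 RPKM in SMA, 2.45-fold lower. Cpne6, a calcium-dependent membrane-binding copine of neurons, was at 138 and 118 RPKM in WT and 62.1 and 57.4 RPKM in SMA, 2.14-fold lower. Igf1, the insulin-like growth factor, was at 56.8 and 53.8 RPKM in WT and 25.9 and 28.6 RPKM in SMA, just under a difference of 1 on the log2 scale. Pcbd2, a pterin dehydratase, was at 15.6 and 17.8 RPKM in WT and 2.78 and 2.82 RPKM in SMA, 5.96-fold lower. Sdf2l1, a protein of the endoplasmic reticulum that helps fold secreted proteins, was at 5.56 and 9.83 RPKM in WT and 1.36 and 0.767 RPKM in SMA. It was the only separated member of the 41 tested genes of the unfolded protein and amino acid stress list (1.68% of all tested genes were separated lower). In that list 6 genes had both SMA values above and 6 below both WT values (12.8% and 15.4% of all tested genes did). Ppp1r1c, an inhibitor of protein phosphatase, was at 8.11 and 5.12 RPKM in WT and 1.21 and 0.253 RPKM in SMA.

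Of 46 tested genes of axon guidance 15 had both SMA values below both WT values (15.4% of all tested genes) and 4 above (12.8%). This count did not hold with the GC trend removed, where 12 lay below and 10 above (16.4% and 17.0% of all genes) and 23 of 46 were positive. Without SMA replicate 2, 18 lay below and 16 above, where 28.1% of all tested genes lay below and 47.8% above. The receptor gene Nrp2, which binds class 3 semaphorins, was at 54.4 and 50.1 RPKM in WT and 27.8 and 33.4 RPKM in SMA. The ligand gene Slit3 was at 46.3 and 48.5 RPKM in WT and 23.8 and 32.9 RPKM in SMA. For Nrp2 and Slit3 the SMA libraries were alike, whereas for Slit2 (42.7 and 44.5 RPKM in WT, 37.8 and 11.9 RPKM in SMA) and Sema3a (51.1 and 44.4 RPKM in WT, 43.0 and 14.9 RPKM in SMA) most of the difference lay in SMA replicate 2. Unc5d, a netrin receptor, was the separated member, at 7.97 and 8.79 RPKM in WT and 5.31 and 1.21 RPKM in SMA. The list median was -0.065, near that of all tested genes, and -0.00079 with the GC trend removed.

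Genes of excitability and transmission were described by 3 lists. Of 52 tested voltage-gated channel genes 12 had both SMA values below both WT values and 3 above (15.4% and 12.8% of all tested genes), none was separated, and the median was -0.13. With the GC trend removed 13 of 51 lay below and 5 above. Without SMA replicate 2, 14 lay on either side, where 28.1% of all tested genes lay below and 47.8% above. Scn1a, a sodium channel, was at 44.3 and 33.6 RPKM in WT and 33.9 and 16.7 RPKM in SMA, with the lower value in SMA replicate 2. Of 49 transmitter receptors 10 were below and 7 above, shares near those of all tested genes, and 11 below and 12 above with the GC trend removed. Glra2, a glycine receptor subunit, was at 53.8 and 53.2 RPKM in WT and 32.7 and 13.5 RPKM in SMA. Of 15 genes of cholinergic transmission 5 were below and none above, and 8 below and 2 above with the GC trend removed. Chrm2, the M2 muscarinic receptor, was at 51.4 and 38.3 RPKM in WT and 32.5 and 23.1 RPKM in SMA, while Ache, acetylcholinesterase, overlapped at 81.5 and 73.3 RPKM in WT and 68.0 and 81.6 RPKM in SMA.

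MicroRNA genes made up many of the lower genes. The libraries were made from fragments far longer than a mature microRNA, so values at these genes count reads over the hairpin from longer transcripts and not the mature RNA, and hosts that overlap them can contribute. Of 170 tested microRNA genes, a class picked after the data were seen, 106 had a negative difference (56.4% of all tested genes did), 30 were separated lower (1.68% of all tested genes were) and 10 higher (1.32%), and the median was -0.32. Of the 170, 15 passed the filter only through WT and 6 only through SMA. Among the other 149, 15 were separated lower (10.1%, beside 1.20% of all genes taken in this way) and 6 higher (4.03%, beside 1.01%), and the median was -0.24. The depth was low: the median over these genes of the highest read number in any of the 4 libraries was 63.5. Mir344-2 was at 15.5 and 16.9 RPKM in WT and 1.38 and 1.21 RPKM in SMA (113 and 105 against 9 and 8 reads). Mir379, Mir380 and Mir453 belong to a cluster of imprinted microRNAs on chromosome 12. Mir379 was at 11.3 and 22.7 RPKM in WT and 3.15 and 0.736 RPKM in SMA, and Mir453 at 20.6 and 23.4 RPKM in WT and 6.57 and 7.55 RPKM in SMA. Mir380, which passed the filter only through WT and had to lie below it, had 39 and 23 reads in WT and 3 and 0 in SMA. Mir186 was lower too (45 and 33 against 10 and 6 reads), and Mir378b was the only microRNA gene among the 15 higher genes (72 and 17 against 151 and 226 reads). Other genes of the chromosome 12 cluster split between the SMA libraries: Mir136 was at 8.504 and 14.4 RPKM in WT and 1.97 and 55.8 RPKM in SMA, and Mir370 at 5.98 and 4.41 RPKM in WT and 0 and 17.5 RPKM in SMA. Of the long noncoding RNAs of this region, Meg3 was at 24.4 and 16.5 RPKM in WT and 21.5 and 18.5 RPKM in SMA, with overlap. Rian was at 72.8 and 69.9 RPKM in WT and 66.1 and 32.0 RPKM in SMA, and Mirg at 8.71 and 6.61 RPKM in WT and 5.15 and 6.59 RPKM in SMA, both lower in both SMA libraries, Mirg by a narrow margin in replicate 2.

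The mature microRNAs that RefSeq (GRCm38.p6) gives for these 6 genes are printed here to identify them, with the seed, bases 2 to 8, in capitals. None of the 10 shares its seed with another.
mmu-miR-344-3p: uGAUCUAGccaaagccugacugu
mmu-miR-344-5p: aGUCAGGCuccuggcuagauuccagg
mmu-miR-379-5p: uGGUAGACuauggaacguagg
mmu-miR-379-3p: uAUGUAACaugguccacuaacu
mmu-miR-380-5p: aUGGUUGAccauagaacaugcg
mmu-miR-380-3p: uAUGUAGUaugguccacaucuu
mmu-miR-453: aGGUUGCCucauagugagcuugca
mmu-miR-186-5p: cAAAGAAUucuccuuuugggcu
mmu-miR-186-3p: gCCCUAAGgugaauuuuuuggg
mmu-miR-378b: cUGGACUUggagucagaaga

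Markers of other cells in the captures were compared in the same way. Among spinal interneuron genes 16 of 17 tested had a positive difference (43.6% of all tested genes did), 5 had both SMA values above both WT values (12.8%) and none below (15.4%), and the median was 0.43. Without Lhx5, which passed the filter only through SMA and had to lie above WT, 15 of 16 were positive, 4 lay above, and the median was 0.41. The count depended on the libraries. Without WT replicate 2, 10 of 17 were positive (38.2% of all tested genes were), and without SMA replicate 2, 12 were (60.9%). Without WT replicate 1 or SMA replicate 1, 14 were (48.7% and 36.5%). The list median stood 0.22 above the WT mean in WT replicate 1 itself and 0.29 above it in SMA replicate 1. Slc32a1, the vesicular transporter of GABA and glycine, was at 10.96 and 3.63 RPKM in WT and 17.2 and 15.3 RPKM in SMA, and Lhx5, a transcription factor of interneurons, at 0.526 and 0.542 RPKM in WT and 2.56 and 2.61 RPKM in SMA. Gad1, which makes GABA, overlapped at 4.13 and 7.89 RPKM in WT and 4.44 and 7.76 RPKM in SMA. Summed over the 30 measured interneuron markers the level was 282 and 262 RPKM in WT and 313 and 434 RPKM in SMA, of which Sst alone gave 127 and 156 RPKM in WT and 136 and 284 RPKM in SMA. Lmx1b and Tlx3 were at 0. The part of interneuron RNA in the results above was not tested.

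Microglia are the immune cells of the spinal cord and its main source of C1q, the starter of the classical complement cascade. C1qb was at 3.13 and 7.64 RPKM in WT and 18.8 and 26.5 RPKM in SMA (4.21-fold), C1qc at 8.16 and 10.3 RPKM in WT and 32.4 and 23.2 RPKM in SMA (3.01-fold), and C1qa at 2.83 and 0.465 RPKM in WT and 5.84 and 5.26 RPKM in SMA. All 3 C1q genes were separated, and they were the 3 separated members among 13 tested complement genes (1.32% of all tested genes were separated higher). Of 19 tested microglia markers, 2 of which passed the filter only through SMA, 8 had both SMA values above both WT values and none below, and the median was 0.40. Without these 2, Cx3cr1 and Cd68, which had to lie above WT, 6 of 17 lay above (35.3%, beside 12.1% of all genes taken in this way) and none below (14.5%), 10 were positive, and the median was 0.32. Tyrobp, an adaptor of activating receptors, was at 6.77 and 7.34 RPKM in WT and 17.5 and 14.2 RPKM in SMA, and Cd68, a lysosomal protein of phagocytes, at 0.229 and 0.602 RPKM in WT and 3.11 and 4.14 RPKM in SMA. P2ry12, a purine receptor that also defines microglia, did not follow, at 2.53 and 2.39 RPKM in WT and 2.52 and 1.54 RPKM in SMA. Summed over the 26 measured markers the level was 306 and 273 RPKM in WT and 415 and 472 RPKM in SMA, most of it from Apoe, which astrocytes express as well (240 and 201 RPKM in WT, 310 and 379 RPKM in SMA). Whether more microglia or more RNA per microglial cell stood behind these values cannot be told apart.

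Of 24 tested astrocyte markers 17 had a positive difference (70.8%, beside 43.6% of all tested genes), and the median was 0.11. With the GC trend removed 18 were positive and the median was 0.25. Gfap, the filament protein of astrocytes, was at 4.80 and 9.04 RPKM in WT and 23.5 and 18.2 RPKM in SMA, and Ntsr2 at 2.04 and 2.71 RPKM in WT and 5.37 and 6.52 RPKM in SMA. These were the separated members of 24 (1.32% of all tested genes were separated higher). Both SMA values lay above both WT values in 7 (12.8% of all tested genes) and below in 1 (15.4%). Slc1a3, a glutamate transporter, overlapped at 23.6 and 17.8 RPKM in WT and 30.5 and 15.9 RPKM in SMA, and Aldoc was near equal at 629 and 587 RPKM in WT and 647 and 578 RPKM in SMA. The summed level of the 24 markers was 2241 and 1651 RPKM in WT and 2877 and 1369 RPKM in SMA, with overlap. Among myelin genes Mbp, myelin basic protein, was at 33.8 and 17.0 RPKM in WT and 66.6 and 39.3 RPKM in SMA. Cldn11 was at 1.23 and 0.145 RPKM in WT and 4.78 and 2.60 RPKM in SMA. Mbp and Cldn11 were the separated members of 13 tested (1.32% of all tested genes were separated higher). Endothelial markers summed to 499 and 537 RPKM in WT and 597 and 617 RPKM in SMA, and none of 20 tested was separated. The summed fibroblast and meningeal markers were highest in SMA replicate 1 (140 RPKM, against 64.1 to 74.2 RPKM in the other libraries).

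Smn1 passed the filter only through WT and had to lie below it. Beside Smn1, the SMN complex and Sm core list had 27 tested members. Both SMA values lay below both WT values in 5 of them (18.5%, beside 14.5% of all genes taken in this way) and above in 2 (7.41%, beside 12.1%). Snrpa1, a protein of the U2 particle, was the other separated member, at 9.17 and 10.2 RPKM in WT and 23.4 and 18.0 RPKM in SMA. Coil, the coilin of Cajal bodies, was at 7.06 and 6.77 RPKM in WT and 3.70 and 4.06 RPKM in SMA, and Snrpd3, an Sm protein, at 11.4 and 16.9 RPKM in WT and 8.43 and 6.11 RPKM in SMA. Gemin4 of the same complex overlapped, at 2.57 and 1.28 RPKM in WT and 2.24 and 1.65 RPKM in SMA. Of 45 splicing factors 6 lay above and 4 below (12.8% and 15.4% of all tested genes did), and none was separated.

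Large housekeeping groups stayed close to the median of all tested genes. The median was -0.0011 over 75 cytosolic ribosomal protein genes, -0.031 over 81 nuclear-encoded respiratory chain genes and 0.031 over 60 replication-dependent histone genes, families whose near-identical copies can share reads. Lists of dividing cells, splicing factors, the proteasome and transmitter receptors had medians that turned on the SMA library: 0.11 in replicate 1 and -0.55 in replicate 2 for dividing cells, 0.22 and -0.46 for splicing factors, 0.083 and -0.40 for proteasome subunits, and 0.19 and -0.31 for transmitter receptors. Their members had median GC contents of 47.6%, 43.3%, 49.6% and 47.2%, beside 49.9% for all tested genes, and with the GC trend removed the medians of SMA against WT were -0.20, 0.055, -0.045 and -0.033.

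**Figure D5:**
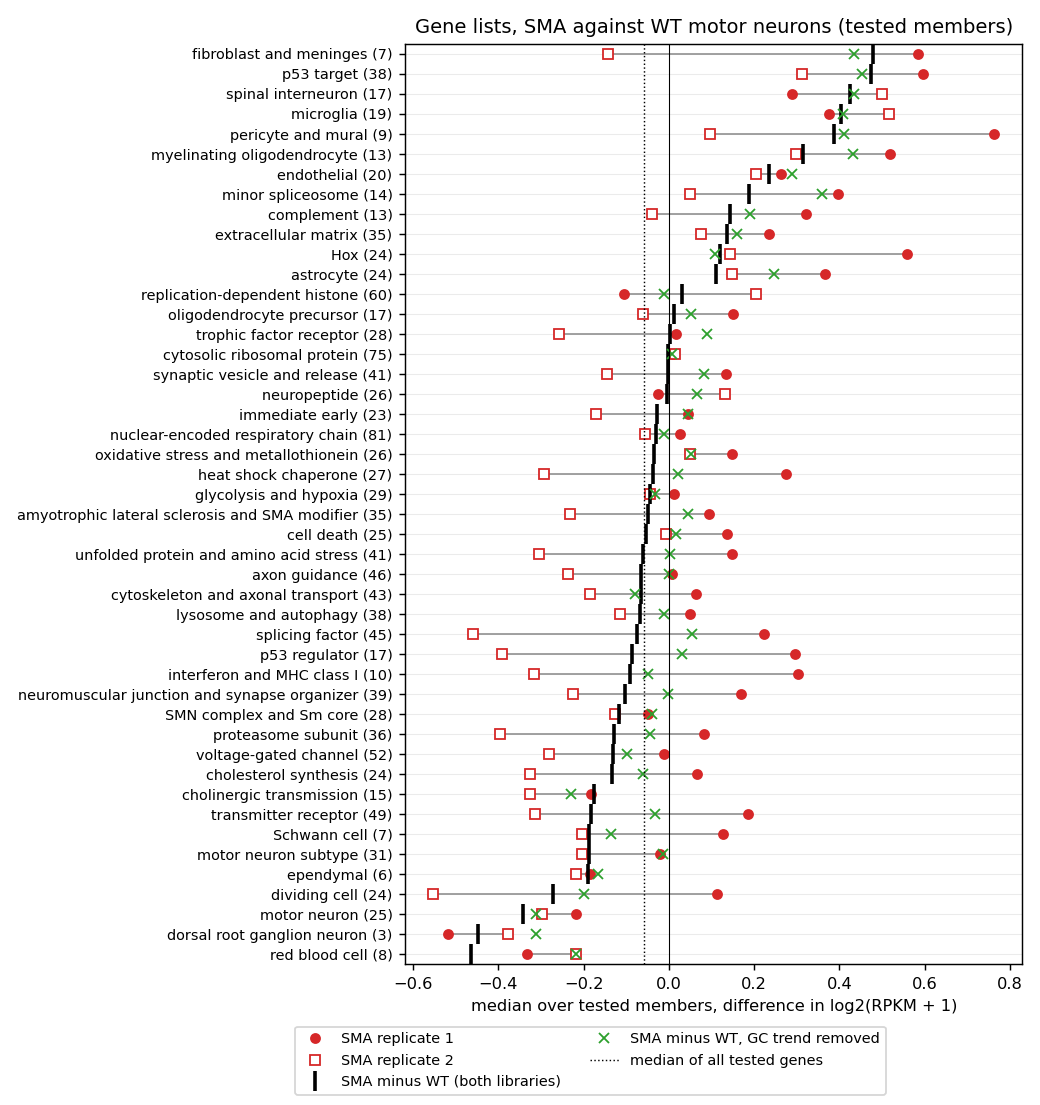
Median difference from the WT mean over the tested members of each gene list (number in brackets), for SMA replicate 1 (filled), SMA replicate 2 (open), both SMA libraries (bar) and both after removal of the GC trend (cross), on log2(RPKM + 1). Lists above 0 in both SMA libraries included p53 targets and some lists of other cells: spinal interneurons, microglia, astrocytes, endothelium, pericytes and myelinating oligodendrocytes. Lists below 0 in both included motor neuron, cholinergic transmission, dorsal root ganglion, ependymal and red blood cell genes. Oligodendrocyte precursor, fibroblast, Schwann cell and dividing cell lists lay above 0 in SMA replicate 1 and below it in replicate 2. Splicing factors ranged from 0.22 to -0.46.

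Single genes with the widest gap between the SMA libraries show the same split. Capza2, a capping protein of actin filaments, was at 17.7 and 9.73 RPKM in WT and 42.2 and 1.12 RPKM in SMA. Tbca, a tubulin chaperone, was at 19.1 and 20.8 RPKM in WT and 54.9 and 3.40 RPKM in SMA. In Capza2 and Tbca the SMA libraries lay on opposite sides of both WT libraries, and Tbca was called in opposite directions by the fits without one or the other SMA library. Of 18 genes called in both of these fits, a comparison chosen after the data were seen and one that shares the WT libraries, 12 had the same direction. Cdkn1a, C1qc and Snord95 were higher, and Arhgap36, Chodl, Cox7a1, Mir344-2, Mir379, Mir380, Mir453, Nppc and Pcbd2 were lower. Of these genes, Cox7a1 and Mir380 passed the filter only through WT and had to lie below it. The 6 with opposite directions were Calm2, Gm15421, Mir136, Mir370, Psmc6 and Tbca. Calm2, a calmodulin gene, was at 394 and 265 RPKM in WT and 732 and 162 RPKM in SMA.

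A value of 0 or a low value need not mean that a gene was silent. Hmgcs1, which the cholesterol pathway of every cell needs, had no reads in any of the 4 libraries, and Gapdh, a glycolytic enzyme with many processed pseudogenes, was at only 3.41 to 6.34 RPKM. How reads with several matches and reads of overlapping genes were counted is not given in the sources used here.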

How the data were processed

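RNA-seq of total RNA from laser-captured ventral horn motor neurons was analysed in 4 libraries. Per the labels' protocols, amplified cDNA (NuGEN Ovation) was sheared, size-selected and built into libraries. The authors deposited 1 RPKM value per gene symbol and library. TopHat, bedtools, DESeq and the mm9 build are named, without roles, per the submitters' processing notes. For versions, annotation, strand and counting rule, nothing is stated in the labels.

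Genes with at least 1 RPKM in at least 2 of the 4 libraries were kept. R 4.3.3 with limma 3.58.1 compared 2 group means of log2(RPKM + 1) with eBayes and trend, two-sided, with Benjamini-Hochberg adjustment and a threshold of 0.05. A log2 difference on this scale understates low genes. Depth was recovered from RPKM steps (whole reads within 0.02 of a read for all 19124 genes with reads), with denominators of 77.5 to 91.0 M reads. GC content is that of the longest transcript in a GRCm38 annotation, available for 90.7% of tested genes. The model was also run on simulated data in which all 4 libraries had the same spread for a gene and no GC trend. In the real data the SMA pair differed more than the WT pair. That run therefore cannot show how the model behaves on the spread of these data. Tables and figures were made in Python (3.11.15; pandas 2.3.3, numpy 2.4.6, matplotlib 3.10.9).

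Named genes were Smn1; the 15 higher and 15 lower separated genes with the smallest p and a group mean of at least 5 RPKM; up to 4 genes per list by p; 12 genes of known interest; the 5 most abundant genes; and the 5 with the widest gap between SMA libraries. A few others, named for contrast or for their place in a list, were chosen after their values were seen. Some genes that these rules name are not reported here. Members, the 46 gene lists and the tests were chosen with earlier results of these data known. Alternatives were other pseudocounts, filters, scalings and variance models, all 8 libraries in the fit, voom on recovered reads, a replicate block, each library left out and, added later, removal of the GC trend.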

Additional observations from a re-analysis of the deposited data

How the results depend on the processing

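Genes called by limma numbered 0 in each direction in every alternative with all 4 libraries, except with the replicate number as a block, which called 1 gene higher, Cdkn1a (adjusted p = 0.0424), and 0 lower. Same-numbered libraries deviated together with r = 0.074 across genes, so the numbers were not taken to pair the libraries, although sex-linked genes follow them in both genotypes. Leaving out 1 library gave 0 to 92 called genes higher and 0 to 578 lower, 36 to 1315 higher and 43 to 2167 lower at an unadjusted p under 0.05, and 213 to 627 separated higher and 311 to 1295 lower. The highest value of each of these 6 counts came from leaving out an SMA library. Other counts at an unadjusted p under 0.05 that moved by over 1.5 times were 274 higher and 316 lower with all 8 libraries in the fit, 99 and 78 with a filter of 5 RPKM, 128 lower with at least 1 RPKM in all 4 libraries, 377 lower with no filter, 286 higher under quantile normalization, 305 higher with the GC trend removed, and 328 and 301 with the GC trend removed and the replicate block. Separated genes numbered 317 higher and 438 lower with a pseudocount of 0.1 RPKM, 318 lower with 0.5 RPKM, 384 and 418 with voom, 90 and 97 with at least 1 RPKM in all 4 libraries, and 72 and 80 with a filter of 5 RPKM. The last 2 test fewer genes, and for the others the cause was not tested.

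Of 1962 values of 105 named genes under the alternatives, 1831 kept direction and side of the threshold, 65 passed it and 66 had the other sign. Every gene with the other sign had overlapping genotypes in the report. The log2 difference was 0.0104 for Ache, 0.0497 for Meg3 and 0.0496 for Mnx1 under median-of-ratios scaling, -0.053 for Aldoc, -0.024 for Calm2, 0.00848 for Meg3, 0.053 for Mnx1 and -0.033 for Prdx2 under quantile normalization, -0.000662 for Prdx2 with equal sums without Rn45s, 0.0202 for Meg3, -0.16 for Mir136 and -1.29 for Xist with voom, -0.051 for Mir136 with a pseudocount of 0.1 RPKM, and 0.066 for Meg3, 0.019 for P2ry12, 0.0995 for Psmc6 and 0.019 for Sod1 with the GC trend removed, with or without the replicate block. Leaving out 1 library at a time gave a range of -0.18 to 0.079 for Ache, -0.071 to 0.091 for Aldoc, -0.13 to 1.18 for Bbc3, -0.99 to 1.18 for Calm2, -2.74 to 1.61 for Capza2, -0.87 to 1.86 for Ccng1, -1.40 to 0.94 for Ei24, -0.57 to 0.18 for Esrrg, -0.37 to 0.43 for Gad1, -0.51 to 0.22 for Gapdh, -0.29 to 0.36 for Gemin4, -1.68 to 2.24 for Gm15421 and -0.21 to 0.30 for Mdm2. It gave -0.28 to 0.26 for Meg3, -2.02 to 2.23 for Mir136, -2.62 to 1.59 for Mir370, -0.17 to 0.15 for Mnx1, -0.44 to 0.025 for P2ry12, -0.016 to 1.54 for Polk, -0.14 to 0.14 for Prdx2, -0.17 to 0.011 for Prph, -1.67 to 1.38 for Psmc6, -0.49 to 0.048 for Rbfox3, -0.34 to 0.55 for Slc1a3, -0.35 to 0.18 for Sod1, -0.045 to 1.01 for Sst, -2.25 to 1.42 for Tbca and -1.90 to 2.34 for Xist.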
